A study of Mus musculus with 6 samples.

Results

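The genes described here are 5 secreted matrix metalloproteinases (Mmp2, Mmp3, Mmp9, Mmp10 and Mmp13), 3 of their tissue inhibitors (Timp1, Timp2 and Timp3), urokinase (Plau) and the urokinase receptor (Plaur). They were taken by gene ID, which gave 21 of the 45101 probe sets on the array. Of these, 14 probe sets, standing for 8 of the 10 genes, were called Present on at least 3 of the 6 arrays and were tested. Mmp10 and Timp1 were not called Present on any array. RNA came from conjunctival epithelium of Spdef -/- mice (3 arrays) and Spdef +/+ mice (3 arrays), all of strain C57BL/6 and 8 weeks old. The product of Spdef is a transcription factor of the ETS family on which goblet cells, the mucus-making cells, depend. How the Spdef allele was made is not stated by the labels. Each array held pooled RNA from a male and a female, 1 eye of either, and laser capture on 6 µm sections took the 40% of the epithelium that lies closest to the fornix. The comparison asked whether expression in this epithelium differs without Spdef.

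Matrix metalloproteinases are zinc-dependent enzymes, most of them secreted as inactive precursors, that cut collagens, laminins and other matrix proteins. TIMPs block their active site, and Timp3 also inhibits ADAM proteases. Urokinase bound to its receptor turns plasminogen into plasmin, which cuts fibrin and can activate metalloproteinase precursors. In the eye these enzymes are best known from wound healing and inflammation of the ocular surface, where Mmp9 is measured in tears as a sign of inflammation.

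Mmp3, Mmp10 and Mmp13 stand close to each other on mouse chromosome 9, among Mmp12, Mmp1a, Mmp1b, Mmp8 and Mmp27. AP-1, the Fos and Jun dimer, is a textbook regulator of stromelysin and collagenase genes, so the promoter windows are shown for the members that carry its letters and, beside them, for Timp3, which does not. The windows are RefSeq sequences of build GRCm38.p6, from 250 bases before to 50 bases after the gene start, written 5′ to 3′ on the gene's strand. Capitals mark the AP-1 letters TGACTCA (or TGAGTCA, the same site on the other strand) and the TATA letters TATAAA.
Plaur, chr7:24462233-24462532, plus strand: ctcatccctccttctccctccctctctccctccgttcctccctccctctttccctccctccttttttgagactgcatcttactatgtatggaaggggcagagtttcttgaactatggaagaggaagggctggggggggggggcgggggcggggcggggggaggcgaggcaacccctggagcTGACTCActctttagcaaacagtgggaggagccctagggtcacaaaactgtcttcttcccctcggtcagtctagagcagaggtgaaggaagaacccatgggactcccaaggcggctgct
Mmp3, chr9:7445572-7445871, plus strand: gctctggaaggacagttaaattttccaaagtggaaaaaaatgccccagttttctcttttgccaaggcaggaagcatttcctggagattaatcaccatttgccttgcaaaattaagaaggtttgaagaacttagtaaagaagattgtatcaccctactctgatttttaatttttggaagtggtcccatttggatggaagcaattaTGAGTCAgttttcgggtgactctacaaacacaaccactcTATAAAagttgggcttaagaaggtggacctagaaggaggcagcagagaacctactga
Mmp10, chr9:7502092-7502391, plus strand: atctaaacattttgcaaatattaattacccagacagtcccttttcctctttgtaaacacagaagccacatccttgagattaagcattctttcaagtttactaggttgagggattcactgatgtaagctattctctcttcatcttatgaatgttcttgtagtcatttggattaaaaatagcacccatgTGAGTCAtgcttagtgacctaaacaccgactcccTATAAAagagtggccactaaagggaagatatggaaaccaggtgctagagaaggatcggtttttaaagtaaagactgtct
Mmp13, chr9:7272264-7272563, plus strand: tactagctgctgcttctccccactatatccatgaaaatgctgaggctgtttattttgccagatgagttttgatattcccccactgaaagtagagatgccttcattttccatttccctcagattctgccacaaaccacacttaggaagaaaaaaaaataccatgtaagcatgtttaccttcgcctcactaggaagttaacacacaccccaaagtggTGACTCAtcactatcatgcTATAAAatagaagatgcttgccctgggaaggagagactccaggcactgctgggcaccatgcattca
Timp3, chr10:86300162-86300461, plus strand: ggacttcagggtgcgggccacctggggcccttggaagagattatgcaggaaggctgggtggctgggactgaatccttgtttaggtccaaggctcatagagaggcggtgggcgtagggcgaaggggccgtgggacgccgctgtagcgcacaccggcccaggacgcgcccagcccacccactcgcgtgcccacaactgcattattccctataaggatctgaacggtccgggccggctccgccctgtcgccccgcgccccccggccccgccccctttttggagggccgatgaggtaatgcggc

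The RefSeq table held a window for 7 of the 10 members (Plaur, Mmp3, Mmp10, Mmp13, Timp1, Timp2 and Timp3). The letters TGACTCA, searched on both strands, were found in 4 of the 7, against 5.2% of 32851 windows of the same length. In Plaur the match began 69 bases before the start, in Mmp10 63, in Mmp3 46 and in Mmp13 35. All 3 metalloproteinase windows also held TATAAA, which 13.6% of all windows hold on either strand, and none of the other 4 windows did. The ETS core letters AGGAAG were in 5 of the 7 windows (35.4% of all windows) and the GC box GGGCGG in 4 (35.7% of all windows). AGGAAG was not in the windows of Mmp10 and Timp2. Only exact matches were searched, so sites that differ by a letter were not counted. These matches describe the letters of the windows, and binding was not measured here.

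**Figure D1:**
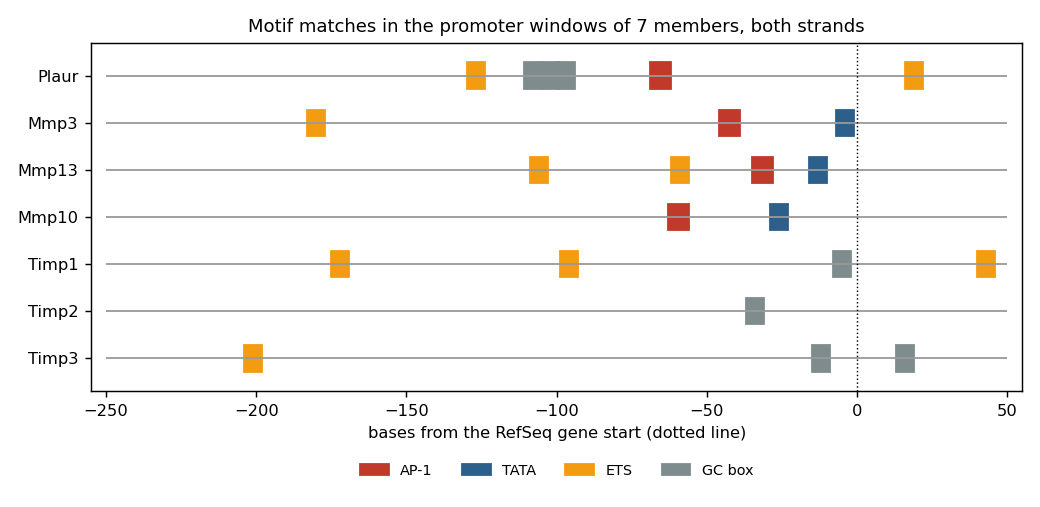
Positions of motif matches in the promoter windows of 7 members, with bases from the RefSeq gene start on the x axis, 1 row per gene and 1 colour per motif. AP-1 letters lie between 35 and 69 bases before the start in Plaur, Mmp3, Mmp13 and Mmp10, and the 3 TIMP windows hold no exact match to them.

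The label checks followed the genotypes. Spdef was at least 248-fold lower in Spdef -/-, with Absent calls on all 3 Spdef -/- arrays and a signal of 692 ± 107 in Spdef +/+ (SD, n = 3; limma, adjusted p = 0.000152). Such a bound raises each undetected signal to the lowest signal called Present on its array. The gel-forming mucin gene Muc5ac had 14.5 ± 7.86 in Spdef -/- and 16560 ± 848 in Spdef +/+ (SD, n = 3 each). Keratin genes of the conjunctival and stratified epithelium list were all tested, as were all 10 stromal markers. Present calls numbered 23290 to 23370 per Spdef -/- array and 24589 to 24833 per Spdef +/+ array. Signals below are in linear dChip units.

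Of the 8 tested members, 4 rose in Spdef -/- (Plaur, Plau, Mmp3 and Mmp9), 3 fell (Mmp2, Timp2 and Timp3) and Mmp13 did not pass the test. Over all 11899 tested genes, 15.8% were called higher and 24.0% lower, 39.7% in all (limma, Benjamini-Hochberg adjusted p under 0.05). The groups did not overlap for the 7 called members, 4 higher and 3 lower, as for 55.3% of all tested genes (22.6% higher and 32.7% lower). The median log2 difference over the 8 tested members was 0.32, and over all tested genes -0.06. Each gene is represented by its brightest tested probe set. Plau passed the detection filter through its Spdef -/- arrays, since 1 Spdef +/+ array called it Present. The members were chosen with earlier results of these data known, and none of their probe sets is among the 153 of the authors' deposited table, which kept a lower bound of the fold over 3 with p at most 0.01.

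**Figure D2:**
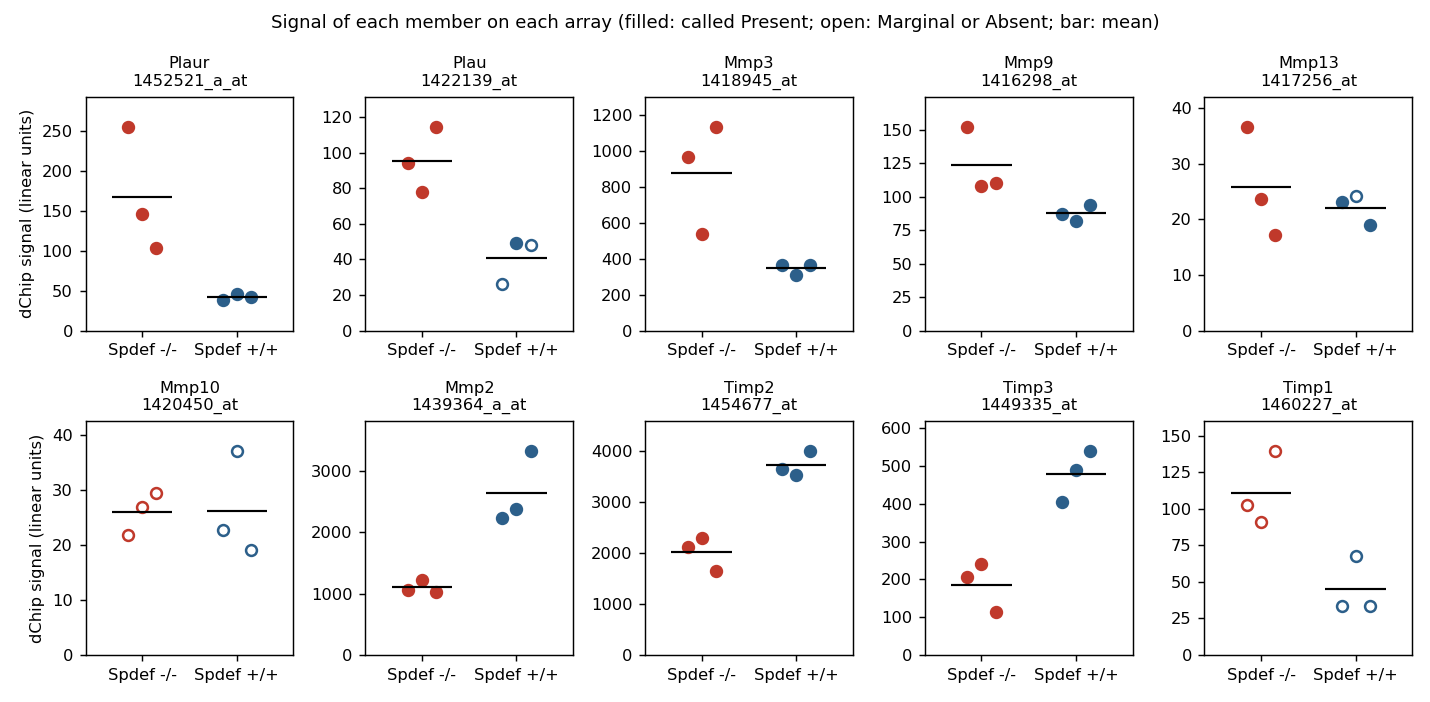
Signal of each member on each array in linear dChip units, with Spdef -/- arrays (red) left of Spdef +/+ arrays (blue), filled points for Present calls, open points for Marginal or Absent calls and bars for group means. Plaur, Plau, Mmp3, Mmp9 and Timp1 are higher on every Spdef -/- array than on any Spdef +/+ array, and Mmp2, Timp2 and Timp3 are lower on every Spdef -/- array.

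The largest difference among the members was that of the urokinase receptor. Plaur, read by probe set 1452521_a_at, measured 255, 146 and 103 on the Spdef -/- arrays, against 38.3, 46.1 and 41.7 on the Spdef +/+ arrays. The Spdef -/- arrays differed more among themselves, with replicate 1 far above the others, and the lowest of them was still more than the highest Spdef +/+ array. Plaur rose 3.73-fold (log2 difference 1.90, SE 0.31, limma, adjusted p = 0.00467).

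Urokinase itself rose along with its receptor, at low signal. Plau (1422139_at) had 94.4, 78.1 and 114.5 on the Spdef -/- arrays, against 26.0, 49.4 and 47.9 on the Spdef +/+ arrays. All 3 Spdef -/- arrays called it Present, and of the Spdef +/+ arrays only replicate 2, so the Spdef +/+ level rests on 1 detected and 2 undetected signals. It was 2.39-fold higher in Spdef -/- (log2 difference 1.26, SE 0.27, limma, adjusted p = 0.0128). The second Plau probe set (1422138_at) was not tested, with 1 Present call in each group and means of 19.7 and 10.8 for Spdef -/- and Spdef +/+.

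Stromelysin 1 (Mmp3), which cuts many matrix proteins and activates other metalloproteinases, was the one of the 3 members on chromosome 9 that rose. Its only probe set, 1418945_at, had 965, 538 and 1132 on the Spdef -/- arrays, against 367, 311 and 363 on the Spdef +/+ arrays. Spdef -/- replicate 2 lay well under the other Spdef -/- arrays, while the Spdef +/+ arrays were close together. Mmp3 rose 2.42-fold (log2 difference 1.27, SE 0.27, limma, adjusted p = 0.0116).

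Collagenase 3 (Mmp13), which cuts fibrillar collagen, and stromelysin 2 (Mmp10) share the AP-1 and TATA letters with Mmp3 but were dim. Mmp13 (1417256_at) had 36.6, 23.7 and 17.2 on the Spdef -/- arrays, against 23.1, 24.2 and 18.9 on the Spdef +/+ arrays. The groups overlapped, and the log2 difference of 0.17 had a 95% interval from -0.48 to 0.81 (limma, adjusted p = 0.654). As a fold, that interval runs from 0.718 to 1.75. Mmp10 (1420450_at) was Absent on all 6 arrays, at 21.9, 27.0 and 29.5 on the Spdef -/- arrays and 22.7, 37.1 and 19.1 on the Spdef +/+ arrays, and no fold is given.

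Gelatinase B (Mmp9), which cuts basement membrane collagen, differed least among the called members. Its probe set 1416298_at had 152, 108 and 110 on the Spdef -/- arrays, against 87.3, 82.1 and 93.8 on the Spdef +/+ arrays, and was 1.39-fold higher (log2 difference 0.48, SE 0.15, limma, adjusted p = 0.0427). This call was at the edge. It was lost without Spdef -/- replicate 1 (adjusted p = 0.0597) or any 1 Spdef +/+ array (adjusted p = 0.109, 0.12 and 0.0706 without replicate 1, 2 and 3), and when probe sets were fitted singly (adjusted p = 0.0504). The other Mmp9 probe set (1448291_at) was not tested, and its groups overlapped, with 81.4, 27.2 and 19.4 on the Spdef -/- arrays and 36.6, 27.6 and 54.7 on the Spdef +/+ arrays.

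Gelatinase A fell while these genes rose. Mmp2, a collagen IV-cutting enzyme made mainly by connective tissue cells, had 1067, 1219 and 1034 on the Spdef -/- arrays (1439364_a_at), against 2232, 2383 and 3322 on the Spdef +/+ arrays. Every Spdef -/- array was lower than any Spdef +/+ array, and Spdef +/+ replicate 3 was the highest. Mmp2 fell 2.36-fold (log2 difference -1.24, SE 0.16, limma, adjusted p = 0.00216), and its other probe set, 1416136_at, fell 2.47-fold in the fit over probe sets (limma, adjusted p = 0.00907).

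The inhibitors Timp2 and Timp3 fell as well. Timp2, which blocks Mmp2 and also takes part in its activation at the cell surface, had 2117, 2291 and 1647 on the Spdef -/- arrays (1454677_at), against 3656, 3533 and 3992 on the Spdef +/+ arrays. The groups lay far apart, and Timp2 fell 1.86-fold (log2 difference -0.90, SE 0.14, limma, adjusted p = 0.00362). Of its 5 tested probe sets 4 fell, by 1.51-fold to 1.86-fold, and the dim 1420924_at did not pass (log2 difference -0.23, limma, adjusted p = 0.271).

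Timp3, an inhibitor that stays bound to the matrix, had 206, 240 and 114 on the Spdef -/- arrays (1449335_at), against 406, 489 and 539 on the Spdef +/+ arrays. Spdef -/- replicate 3 was the lowest array. Timp3 fell 2.67-fold (log2 difference -1.42, SE 0.28, limma, adjusted p = 0.0091), and 1419089_at, with 186, 198 and 145 on the Spdef -/- arrays and 355, 456 and 433 on the Spdef +/+ arrays, fell 2.36-fold in the fit over probe sets (limma, adjusted p = 0.00221). Its remaining probe sets, 1449334_at and 1419088_at, were not tested.

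Timp1, the inhibitor gene known for induction in inflamed tissue, was not detected here. Its only probe set, 1460227_at, read 103, 91.1 and 139 on the Spdef -/- arrays, against 33.6, 67.8 and 33.6 on the Spdef +/+ arrays. The groups did not overlap, but no array called it Present and Spdef +/+ replicate 2 was Marginal. It was therefore not tested in the main fit, and no fold is given.

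**Figure D3:**
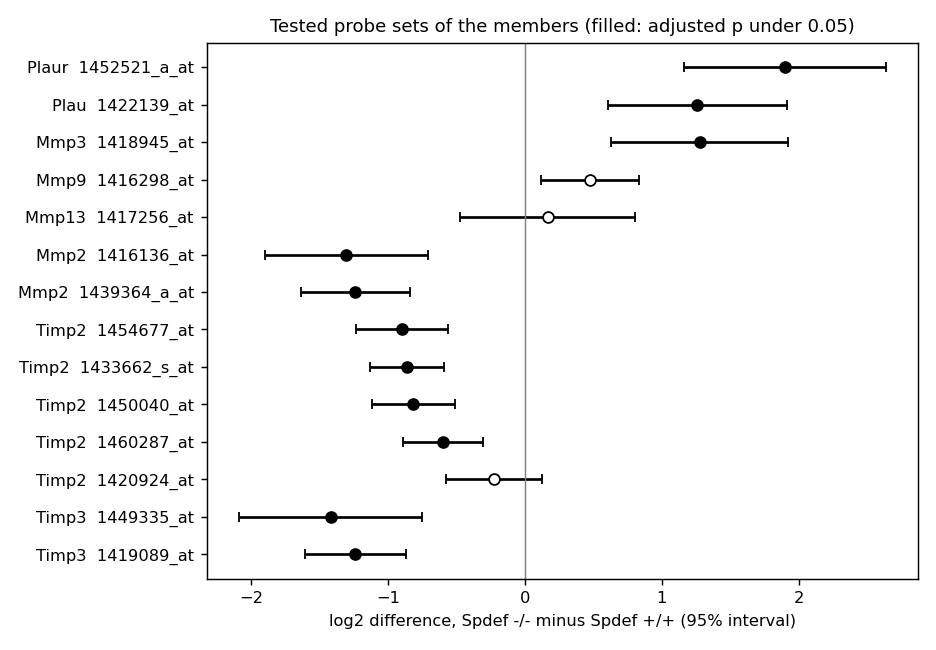
Log2 difference, Spdef -/- minus Spdef +/+, of the 14 tested member probe sets (points) with 95% intervals (bars), filled where the adjusted p over all 21727 tested probe sets was under 0.05. Of these, 3 are filled above 0 (Plaur, Plau and Mmp3) and 8 below 0 (probe sets of Mmp2, Timp2 and Timp3).

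Counted by probe set, 3 of the 14 tested rose and 8 fell, against 13.4% and 20.1% of the 21727 tested probe sets (33.5% in all). Groups did not overlap for 12 of the 14, 4 higher and 8 lower, against 50.8% of all tested probe sets (21.0% higher and 29.8% lower). No gene had tested probe sets called in opposite directions.

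Some stromal transcripts fell along with these members. Of 10 tested fibroblast and stroma markers, 5 fell (Col1a1, Col1a2, Col3a1, Dcn and Postn) and none rose, with a median log2 difference of -0.60. Over all tested genes 24.0% fell and 15.8% rose. Lum, Pdgfra, Pdgfrb, Vim and Thy1 did not pass (limma, adjusted p = 0.2, 0.0604, 0.418, 0.1 and 0.349), and of these only Pdgfra had groups that did not overlap. Their summed signal was 24150, 25440 and 22400 on the Spdef -/- arrays, against 33570, 39590 and 51230 on the Spdef +/+ arrays. Mmp2 stood in the same order, highest on Spdef +/+ replicate 3 and lowest on Spdef -/- replicate 3, and so did Timp3. Timp2 was also highest and lowest on these 2 arrays. Col1a1, the alpha 1 chain of collagen I, fell 2.62-fold (limma, adjusted p = 0.00712). In bulk RNA, fewer cells of a type and less RNA per cell cannot be told apart. The part of the stromal share in the lower Mmp2, Timp2 and Timp3 was not tested. Mmp14, the membrane-type activator of the Mmp2 precursor, had 1318 ± 42.9 in Spdef -/- and 1298 ± 148 in Spdef +/+ (SD, n = 3 each), with a fold of 1.02 (95% interval 0.861 to 1.21, limma, adjusted p = 0.85).

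**Figure D4:**
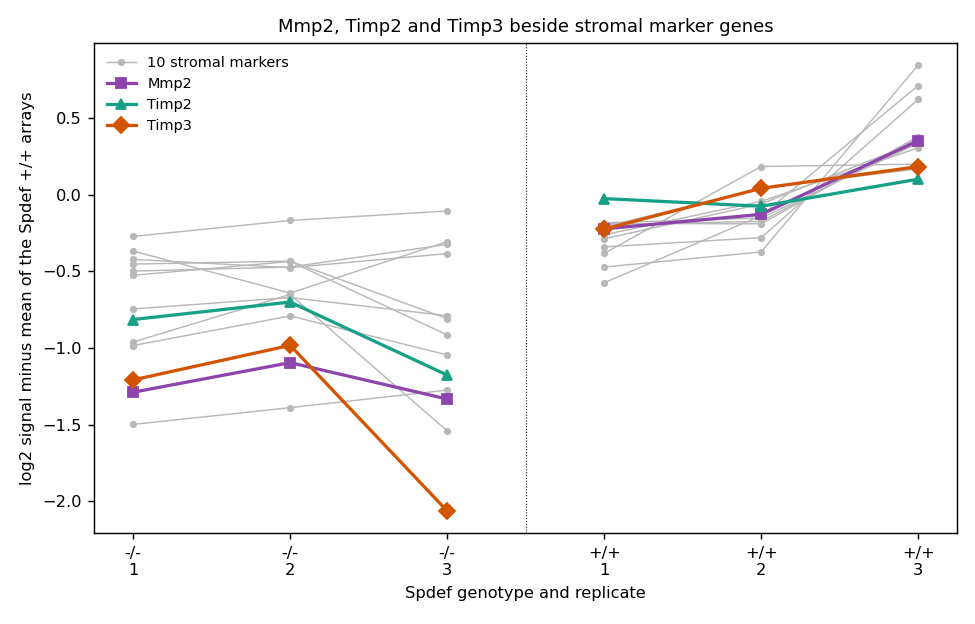
Log2 signal on each array minus the mean of the Spdef +/+ arrays, for Mmp2, Timp2, Timp3 (coloured) and 10 stromal marker genes (grey), with lines joining the arrays of a group. The 3 members are lower on all Spdef -/- arrays than on any Spdef +/+ array, and have their lowest value on Spdef -/- replicate 3 and their highest on Spdef +/+ replicate 3.

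The neutrophil markers that were detected widely enough to test were higher in Spdef -/-. Of 9 markers with a probe set, S100a8, S100a9 and Csf3r were tested and all 3 rose. Csf3r was called Present on no Spdef +/+ array, so it passed the detection filter only through its Spdef -/- arrays. Cxcr2, Camp, Mpo, Elane and Fpr1 were called Present on no array. Ngp was called Present on 1 array of each genotype, with overlapping groups. Mpo, Absent throughout, read 12.6, 8.89 and 16.4 on the Spdef -/- arrays and 39.03, 33.9 and 34.5 on the Spdef +/+ arrays. The summed signal of the 9 markers was 9003, 3699 and 4767 on the Spdef -/- arrays, against 411, 383 and 367 on the Spdef +/+ arrays, most of it from S100a8 and S100a9, which stressed stratified epithelium also makes. Spdef -/- replicate 1 was the highest array for this sum, for Plaur and for Mmp9, but not for Mmp3 or Plau. The neutrophil collagenase gene Mmp8 was Absent on the Spdef -/- arrays, at 72.5, 17.3 and 36.3, and read 5.22, 5.08 and 11.99 on the Spdef +/+ arrays, where replicate 1 called it Present. The summed macrophage markers overlapped between the groups, from 3993 to 5759 in Spdef -/- and from 4082 to 5722 in Spdef +/+. The part of these cells in the higher Plaur, Plau, Mmp3 and Mmp9 was not tested. Markers of conjunctival and stratified epithelium summed to 73430 to 80490 in Spdef -/- and 58040 to 58510 in Spdef +/+. Of these 7 markers 5 rose, against 15.8% of all tested genes.

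Around urokinase, other parts of the plasminogen system also rose. Of 10 tested genes in this list 4 rose and 1 fell, against 15.8% and 24.0% of all tested genes. Serpinb2, which encodes the urokinase inhibitor PAI-2, had 514, 724 and 262 on the Spdef -/- arrays, against 15.9, 15.5 and 30.6 on the Spdef +/+ arrays, and rose 23.5-fold (limma, adjusted p = 0.000721). Plat, tissue plasminogen activator, had 1703, 851 and 789 on the Spdef -/- arrays, against 341, 406 and 400 on the Spdef +/+ arrays, and rose 2.74-fold (limma, adjusted p = 0.00935). Both groups lay clear of each other for these 2 genes. Eno1, a glycolytic enzyme that binds plasminogen at the cell surface, rose 1.42-fold (limma, adjusted p = 0.00353), and St14 (matriptase) was the fourth. The one that fell was Prss8. Plg, the gene of plasminogen, was called Present on no array.

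Among other metalloproteinases, 1 of 7 tested was called, against 39.7% of all tested genes. Mmp11 fell, to 44.7 ± 3.55 in Spdef -/- against 79.3 ± 7.78 in Spdef +/+ (SD, n = 3 each; 1.77-fold, limma, adjusted p = 0.00188), and none rose. Of 7 tested genes that bind or regulate these enzymes, 3 rose and 1 fell, against 15.8% and 24.0% of all tested genes. Lcn2, whose protein forms a complex with Mmp9 in humans, rose 5.49-fold, and Cd44, a hyaluronan receptor that can hold Mmp9 at the cell surface, rose 2.81-fold (limma, adjusted p = 0.00119 and 0.000488). Reck, a membrane-anchored metalloproteinase inhibitor, fell 2.32-fold, to 191 ± 73.5 in Spdef -/- against 423 ± 87.4 in Spdef +/+ (SD, n = 3 each; limma, adjusted p = 0.027). The third that rose was Furin, a convertase that activates several precursors.

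ADAM and ADAMTS genes went both ways, with 3 of 15 tested higher and 3 lower. Over all tested genes 15.8% were higher and 24.0% lower, so this list was called about as often as all genes. Adam8 rose 4.17-fold and Adam17, the TNF-releasing sheddase that Timp3 inhibits, rose 1.36-fold (limma, adjusted p = 0.00469 and 0.00628), and Adamts12 fell 2.38-fold (limma, adjusted p = 0.000944). The others called were Adamts4, which was higher, and Adam33 and Adamts2, which were lower. Adamts4 was called Present on no Spdef +/+ array, and Adam33 and Adamts2 on no Spdef -/- array. Each of them thus passed the detection filter only through the group where it was higher. Adamts12 was called Present on only 1 Spdef -/- array. Of 19 tested basement membrane genes, whose proteins these enzymes cut, 13 fell and none rose, with a median log2 difference of -0.44. Over all tested genes 24.0% fell and 15.8% rose, with a median of -0.06. The part of the stromal share in these lower genes was not tested, nor in the lower Reck, Mmp11, Adamts2 and Adamts12. Nid1, a linker of the basement membrane, fell 2.31-fold, and the collagen IV chain genes Col4a1 and Col4a6 fell 2.17-fold and 1.75-fold (limma, adjusted p = 0.00228, 0.00393 and 0.00107).

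Genes that act upstream of metalloproteinases in other tissues were more often higher than lower. Over all tested genes 15.8% were called higher and 24.0% lower. Of 13 tested genes in a list of AP-1, ETS and NF-kB factors that also holds the zinc finger factor Egr1, 5 rose and 1 fell (Ets2). Fos rose 2.59-fold, Fosb 2.77-fold and Egr1 2.22-fold (limma, adjusted p = 0.000566, 0.00286 and 0.00104), and the other two were Junb and Nfkb1. Of 9 tested cytokines and growth factors known to induce metalloproteinases, 6 rose and 1 fell. Il1b rose 8.97-fold and Il1a 4.38-fold (limma, adjusted p = 0.0052 and 0.00581), with Il1a called Present on only 1 Spdef +/+ array. Osm, Present on no Spdef +/+ array, and Il17a also rose. The EGF receptor ligand genes Hbegf and Areg rose 1.87-fold and 2.12-fold, and Tgfb2 fell 2.12-fold (limma, adjusted p = 0.00134, 0.0052 and 0.000417). Mmp14, Mmp8, Furin, St14, Prss8, Plg, Adamts4, Adam33, Adamts2, Junb, Nfkb1, Ets2, Il1b, Il1a, Osm, Il17a and the genes of the marker lists were named after their values were seen.

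**Figure D5:**
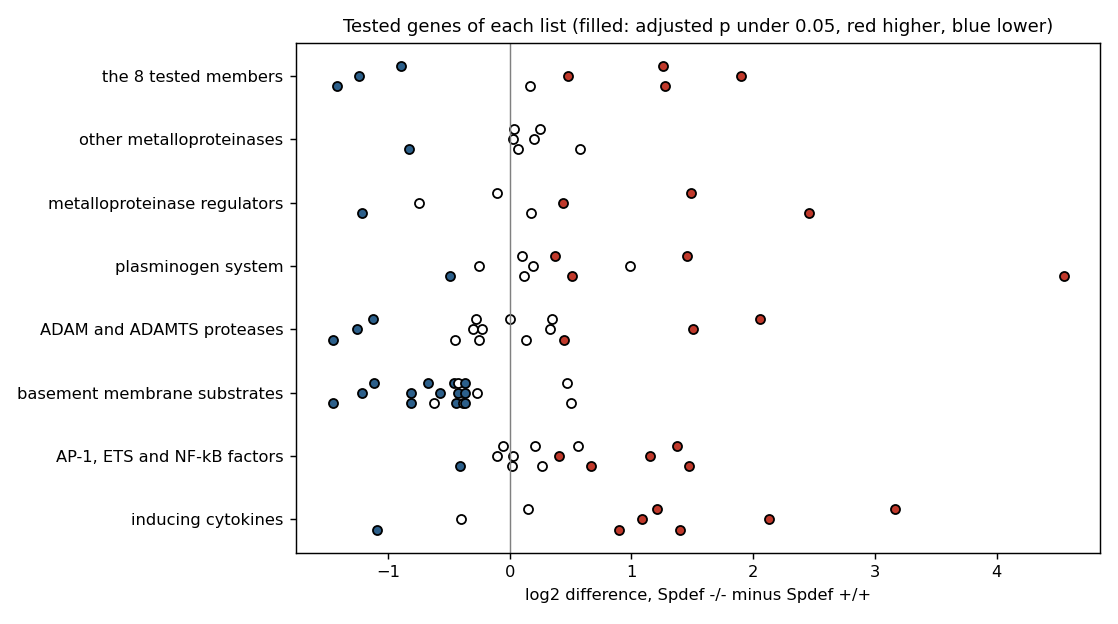
Log2 difference, Spdef -/- minus Spdef +/+, of each tested gene (points) in 8 lists (rows), filled red where called higher and blue where called lower. The members split into 4 higher and 3 lower, basement membrane genes lie mostly below 0, and Serpinb2 is the point farthest to the right, in the plasminogen system.

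Leaving out symbols of predicted or clone type, the gene whose log2 signals followed Plaur most closely over the 6 arrays was Tnfaip3 (Pearson r = 0.9992). It encodes an inhibitor of NF-kB signalling. Krt23 (r = 0.9973), a type I keratin, and Galnt3 (r = 0.9968), which starts mucin-type O-glycans, came next. These 6 arrays share the difference between genotypes, so the correlations describe the arrays. Tnfaip3 averaged 573 in Spdef -/- and 151 in Spdef +/+.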

How the data were processed

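Affymetrix arrays of 3 Spdef -/- and 3 Spdef +/+ samples were analysed. The deposited intensity values are the authors' dChip signals, linear and already normalized, with 1 value for a probe set on an array. The deposited detection calls, the other values, are Present, Marginal or Absent. Neither labels nor file headers say how normalization, background correction and detection were done. The authors' deposited comparison table holds fold values (as signed scores) and an unadjusted p-value for 153 probe sets, per the file headers. The series matrix held the same intensity values, with 0 that differed.

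Probe sets took symbols from the RefSeq gene table (assembly GRCm38.p6), which named 18096 genes. The log2 of each signal was taken after raising values under 1 to 1. Probe sets with 1 symbol and Present on at least 3 arrays were tested (21727), and the one with the highest mean stood for its gene (11899). The genotypes were set against each other with limma 3.58.1 (R 4.3.3; lmFit, then eBayes; genotype alone in the model; two-sided; Benjamini-Hochberg adjustment over all genes, threshold 0.05). The same fit was run over probe sets. The gene fit was also run on simulated data, with independent normal noise and far fewer changed genes than were called here. That run does not show how the fit performs on these data. The number of arrays limits the precision, with a median residual SD of 0.139 on the log2 scale. The labels call the samples biological replicates, and p-values measure the spread between these pools. Arrays with the same replicate number did not deviate together, so the numbers were not treated as pairs.

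The members and lists were chosen with earlier results of these data known. Genes named are the members, Spdef, Muc5ac, from each list other than the marker lists its called genes of smallest p, up to 3 (1 if none was called), and the 3 genes most correlated with the member that differed most. Symbols of predicted or clone type, such as Gm, Rik and LOC names, were left out of these correlations. Alternatives were quantile normalization, no detection filter, a mean-signal minimum of 50, centring on array medians, a floor of 16, a pseudocount of 32, eBayes with trend and robust, the replicate number as a block, averaging over probe sets per gene, and leaving out each array. The marker lists for endothelium, cornea and goblet cells were also counted (of tested genes, 1 rose and 1 fell of 5, 1 rose of 4, and 6 fell of 6).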

Additional observations from a re-analysis of the deposited data

How the results depend on the processing

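Plaur, Plau, Mmp3, Mmp2, Timp2 and Timp3 kept their direction and their call under all 15 alternatives. Their log2 differences ranged from 1.36 to 2.20 for Plaur, 0.81 to 1.42 for Plau, 1.06 to 1.59 for Mmp3, -1.35 to -1.06 for Mmp2, -0.99 to -0.68 for Timp2 and -1.64 to -1.09 for Timp3. Mmp9 lost its call in 7 of the 15, with adjusted p from 0.0326 to 0.12 over all of them: no detection filter (0.0999), median centring (0.0587), the replicate block (0.0636) and leaving out 1 of 4 arrays. Mmp13, which was never called, turned to a log2 difference of -0.12 without Spdef -/- replicate 1, and ranged up to 0.42 with other arrays left out. The cause was not tested. With no detection filter, 1 member probe set was called higher, Plaur, in place of 3. That fit tests more probe sets, and Mmp3 then had an adjusted p of 0.0506 and Plau 0.0541. Timp1, Present on no array, also entered without the filter. It was called higher in the fit over genes (limma, adjusted p = 0.0451) but not in that over probe sets (limma, adjusted p = 0.0587). Leaving out 1 array gave 1277 to 1825 genes called higher and 1850 to 2734 called lower, in place of 1878 and 2850, and fewest without Spdef +/+ replicate 1. With the replicate block 1473 genes were called higher and 2200 lower, and of the members 3 higher and 3 lower. The deviations of same-numbered arrays from their group means correlated at -0.013, -0.09 and -0.084, and those of other pairs at -0.03 to 0.092. Same-numbered arrays thus did not deviate together. With so few arrays in a group, this cannot show whether they shared a preparation. Signals near background limit what can be said of Mmp10 and Mmp13, and the lack of Present calls limits what can be said of Timp1.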

Other observations

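Mmp12, the macrophage elastase gene, stood out on 1 array. It was Absent on the Spdef -/- arrays, at 18.7, 13.9 and 11.9, and on Spdef +/+ replicates 1 and 3, at 19.8 and 25.2, and was called Present at 370.5 on Spdef +/+ replicate 2. Timp4, the remaining TIMP gene, had 16, 10.8 and 13.9 on the Spdef -/- arrays, and 60.3 on Spdef +/+ replicate 2, where it was highest, with 10.6 and 17.7 in the rest of that group. Both genes were singled out after their values were seen. Timp4 was not called (limma, adjusted p = 0.359) and Mmp12 was not tested. Within Spdef +/+, replicate 2 also had the highest summed macrophage markers (5722, against 4115 and 4082). Its summed corneal markers were the highest too (22580, against 18640 and 17600). The macrophage sum of Spdef -/- replicate 1 was 5759. The part of tissue content in the Mmp12 and Timp4 peaks was not tested.

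The AP-1 letters TGACTCA were in the promoter windows of 90 of 1479 genes called higher in Spdef -/- (6.09%), of 116 of 2268 called lower (5.11%) and of 265 of 5777 tested genes that were not called (4.59%). These shares are a description, and no test of them was made.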
